A study of Homo sapiens with 13 samples.

Results

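The first hour after stimulation was compared between EGF, a ligand of the epidermal growth factor receptor, and a serum mixture in MCF10A cells, a spontaneously immortalised, non-tumour human mammary epithelial cell line. The EGF arrays of 20, 40 and 60 min were set against the serum arrays of the same times, which gave 6 arrays of the 13 in the series and 3 pairs. All cells had been deprived of serum for 24 h before they were stimulated. The serum mixture held heat-inactivated horse serum, insulin, cholera toxin and hydrocortisone, with no EGF. Stimulated cells were also collected at 120, 240 and 480 min, with 6 later arrays in all, and 1 array came from unstimulated cells. Each stimulus and time had 1 array and no replicate, so the 3 times served as the pairs. The SE and p-values below thus rest on how far the EGF-minus-serum difference varied between times within the first hour and within the later arrays. That spread mixes true change with time and variation between single arrays, and holds none between replicates. A gene whose difference moved with time therefore has a larger SE. The small number of arrays limits the precision. The array labelled EGF at 20 min carried a description naming 40 min, and its title was followed.

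EGF binds its receptor on epithelial cells and activates the RAS, RAF and ERK kinases, which switch on immediate early genes within minutes and, soon after, genes for phosphatases and other inhibitors that turn the signal down. Cholera toxin keeps the stimulatory G protein active, so that adenylyl cyclase makes cAMP, and protein kinase A then phosphorylates CREB, which binds the cAMP response element in promoters. Hydrocortisone activates the glucocorticoid receptor, and insulin signals through PI3 kinase and AKT. The serum arrays thus carry the signals of several pathways at once, and the design does not separate them.

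Values were the deposited array signals on a linear scale, where higher means more RNA. Differences are EGF minus serum on a quantile-normalized log2(signal + 6) scale, averaged over the 3 pairs, with SE as the standard error of the model. The added 6 makes the folds of dim genes smaller. Of 11963 genes with a named probe set, 7731 were bright enough to be tested. The arrays were alike in scale, with a trimmed mean signal of 150.04 to 150.05 on all 13. The serum array of 20 min stood slightly apart, with 33.3% of its probe sets under a signal of 20, against 36.8% to 40.0% on the others. The basal mammary epithelial markers KRT5, KRT14, LAMB3 and ITGB4 had signals over 100 on all 6 arrays, and so had 4 of 4 general epithelial markers. Summed over the 4 basal markers the signal was 18864.3 to 20150.1 on the EGF arrays and 15159.2 to 18590.2 on the serum arrays, so these sums of unnormalized signals did not overlap. On the normalized log2 scale the 4 markers differed by 0.00 (KRT5), -0.03 (KRT14), 0.10 (LAMB3) and 0.08 (ITGB4). The 6 fibroblast markers summed to 377.6 to 407.3 in EGF and 422.6 to 508.6 in serum, most of it from DCN. The 4 blood cell markers summed to 229.1 to 249.1 in EGF and 213.7 to 336.9 in serum. Most of that came from CD14, at 195.3 to 219.9 in EGF and 186.9 to 286.2 in serum. The 3 endothelial markers summed to 12.6 to 47.3 in EGF and 23.8 to 66.1 in serum. The part of these levels in the results below was not tested. In RNA from a whole culture, fewer cells of a type and less RNA per cell cannot be told apart.

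The largest differences were in genes whose RNA was higher in serum. At least 2-fold lower in EGF in all 3 pairs were 10 genes, which is 0.129% of the genes tested. In order of the mean difference these were RGS2, ATF3, FOSB, KLF4, NR4A2, DUSP1, CDKN1C, MMP25, MAN1A1 and NR4A1. At least 2-fold higher in EGF in all 3 pairs were 4 genes, or 0.0517%, namely KHDRBS3, PMS2P2, SURF2 and TNFSF14. In each single pair about 3 in 100 genes were 2-fold apart (3.45%, 3.09% and 3.25% at 20, 40 and 60 min), so few genes held that size through the hour. Lower in EGF in all 3 pairs, whatever the size, were 1650 genes (21.3%), and higher were 1510 (19.5%).

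By limma with Benjamini-Hochberg adjustment over the 7731 genes, 0 genes (0.0%) passed an adjusted p of 0.05, while 1114 had an unadjusted p under 0.05. With a variance trend and robust variances, 178 genes passed, 102 of them lower in EGF (1.32%) and 76 higher (0.983%). With 3 pairs an exact sign-flip test cannot go below p = 0.25. The genes named below are therefore described by their size in each pair, and none of their differences passed the test in that model.

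**Figure D1:**
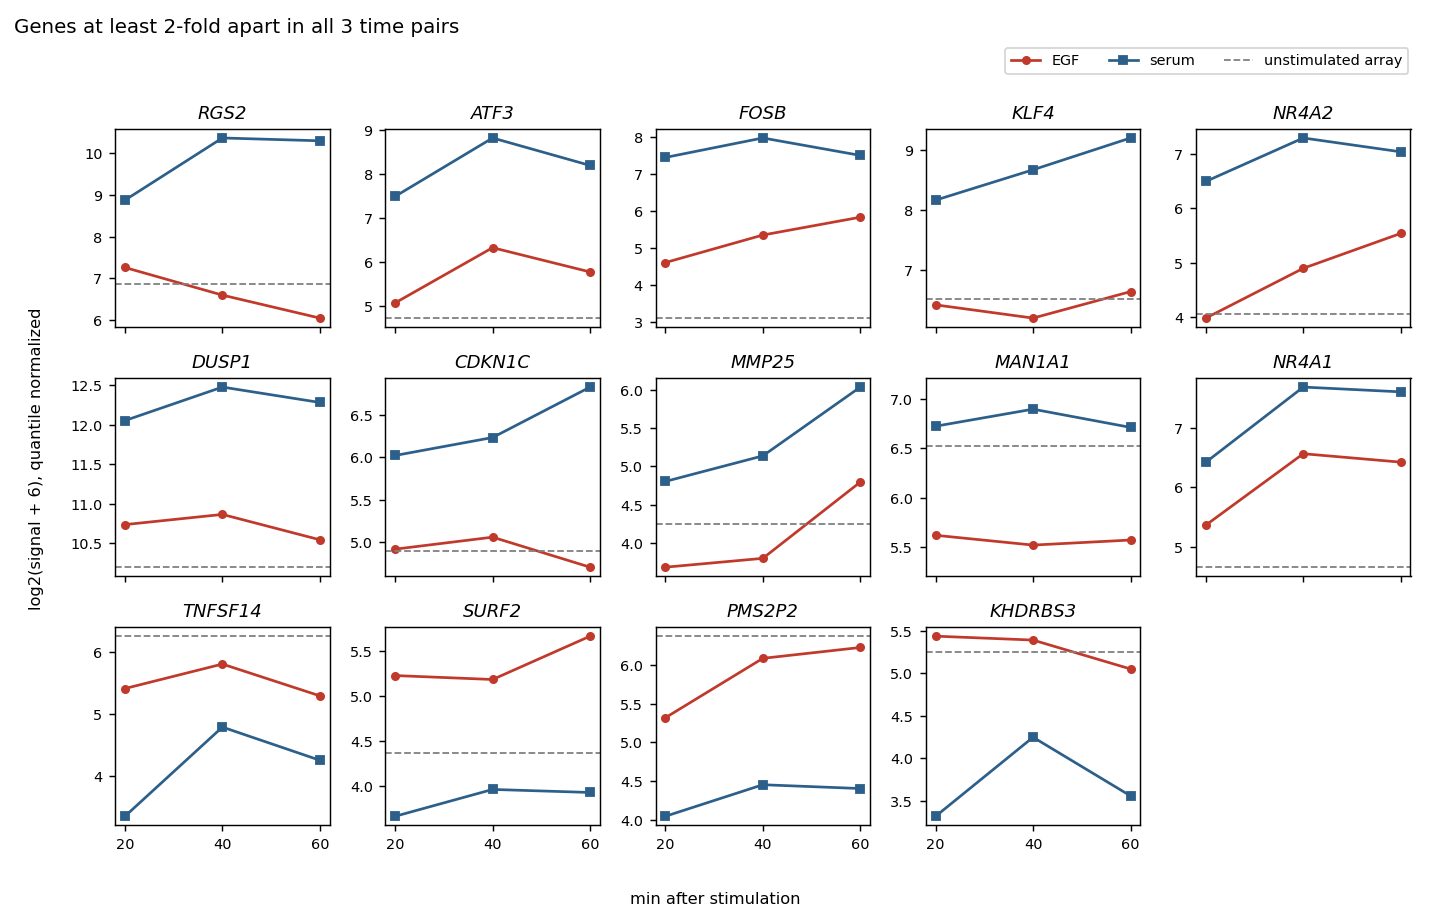
Level of each of the 14 genes at least 2-fold apart in all 3 pairs, as quantile-normalized log2(signal + 6) against min after stimulation, for EGF (red circles) and serum (blue squares), with the unstimulated array as a dashed line. Each point is 1 array. The serum line lies above the EGF line in the first 10 panels and below it in the last 4, and the scales differ between panels.

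RGS2, which encodes a protein that speeds the shut-off of G protein alpha subunits and is itself a known cAMP target, had the largest difference. Its signal was 146.6, 90.6 and 60.4 in EGF at 20, 40 and 60 min, against 454.5, 1338.7 and 1250.6 in serum, with 117.7 on the unstimulated array. The EGF values lay near or below the unstimulated level, and the serum values were at least 3 times the EGF value of the same time. The mean difference was -3.21 (SE 0.46, 9.26-fold lower in EGF, limma adjusted p = 0.136). The pairs were at -1.61, -3.77 and -4.25, so the gap was smallest at 20 min.

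ATF3, a stress- and growth factor-responsive bZIP transcription factor, had signals of 27.7, 74.8 and 48.9 in EGF against 177.5, 449.8 and 286.4 in serum and 21.7 unstimulated. Both stimuli peaked at 40 min and the groups did not overlap. Its difference was -2.46 (SE 0.28, 5.48-fold lower, limma adjusted p = 0.0844), with pairs between -2.50 and -2.43. FOSB, a partner of JUN proteins in the AP-1 transcription factor, was at 18.1, 35.3 and 51.4 in EGF against 172.9, 246.8 and 173.9 in serum, and at 2.6 unstimulated. Every EGF value was above the unstimulated one, and every serum value was above every EGF value. The FOSB difference was -2.39 (SE 0.24, 5.23-fold lower, limma adjusted p = 0.0588), and the pairs narrowed with time, at -2.85, -2.63 and -1.68.

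The orphan nuclear receptors NR4A2 and NR4A1, which act as transcription factors without a known hormone, stood on the same side. NR4A2 was at 9.7, 24.5 and 40.8 in EGF against 89.9, 147.4 and 124.6 in serum, with 11.1 unstimulated (difference -2.13, SE 0.36, limma adjusted p = 0.146). At 20 min NR4A2 in EGF was at about the unstimulated level, and it was highest in EGF at 60 min. NR4A1 was at 35.5, 88.7 and 80.7 in EGF against 85.8, 198.1 and 187.2 in serum, with 20.4 unstimulated (difference -1.12, SE 0.26, limma adjusted p = 0.176). NR4A1 was thus above the unstimulated level with both stimuli, by more in serum, and its lowest serum value lay just under its highest EGF value.

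KLF4, a zinc-finger transcription factor of epithelial differentiation, was at 79.9, 67.6 and 94.0 in EGF against 278.8, 400.5 and 582.0 in serum. The unstimulated array had 90.8, so EGF stayed near that level while each serum value was at least 3 times it. The KLF4 difference was -2.26 (SE 0.20, 4.80-fold lower, limma adjusted p = 0.0545). CDKN1C, the cyclin-dependent kinase inhibitor p57 and a glucocorticoid target, showed the same shape at a lower level, with 24.6, 27.9 and 19.8 in EGF, 65.1, 67.9 and 106.4 in serum and 25.9 unstimulated. Its difference was -1.46 (SE 0.22, 2.76-fold lower, limma adjusted p = 0.137).

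DUSP1, the phosphatase that inactivates ERK, p38 and JNK, was the brightest gene of the set. It had 1725.6, 1873.6 and 1458.5 in EGF against 3693.3, 5490.6 and 4985.8 in serum, and 1123.3 unstimulated. All 6 stimulated values were above the unstimulated one and the groups did not overlap. The difference was -1.56 (SE 0.15, 2.94-fold lower, limma adjusted p = 0.0579), and the pairs widened with time, at -1.32, -1.61 and -1.74. A signal of this size is far from the dim end, where the added 6 and the array background weigh most.

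The other members were dimmer. MAN1A1, a Golgi mannosidase that trims N-linked sugar chains, was at 43.8, 40.5 and 41.9 in EGF against 105.2, 110.8 and 97.5 in serum, with 91.9 unstimulated (difference -1.20, SE 0.16, limma adjusted p = 0.136). It was the 1 gene of the 10 in which all 3 EGF values lay under the unstimulated one. MMP25, a membrane-anchored metalloproteinase, was at 6.6, 7.9 and 21.4 in EGF against 27.7, 27.6 and 58.7 in serum, with 13.5 unstimulated (difference -1.24, SE 0.47, limma adjusted p = 0.312). Its EGF values at 20 and 40 min were at the dim end of the array.

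Against the unstimulated array, all 3 serum values were higher in 10 of these 10 genes, and all 3 EGF values were higher in 4 of 10. Signals under 20 made up 5 of the 30 EGF values and 0 of the 30 serum values. The genes were chosen for serum above EGF in each pair, which favours such counts. The same shares over all genes were not counted, so these counts only describe the set. By limma with a variance trend and robust variances 8 of the 10 passed, and RGS2 (adjusted p = 0.0512) and MMP25 did not. Over all genes 1.32% passed lower in EGF. The 10 genes were chosen by their size in the same pairs, so this count is no separate support. Of the 14 genes, 7 had further probe sets, 12 in all, of which 11 gave a mean difference of the same sign. Only 2 of the 12 were at least 2-fold apart in all 3 pairs. DUSP1's other probe set was at -1.72 and KLF4's at -2.41, those of NR4A2 were at -1.42 and -1.69, and those of NR4A1 at -0.86 and -1.02. The exception in sign was 1 of 4 further CDKN1C probe sets (0.15). MAN1A1's other probe set was at -0.05 and MMP25's at -0.78, and neither had a common sign over the 3 pairs.

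The promoters of 6 genes of the lower set are shown with the cAMP response element marked. Which part of the serum mixture acted on these genes was not tested. The first 4 hold the core of that element in the window shown. The last 2, ATF3 and NR4A1, are CREB targets on the list used here and have none in that window. They are RefSeq sequences of build GRCh38.p14 from 250 bases before to 50 after the annotated start, written 5′ to 3′ in the direction of the gene, and 7 of the 10 lower genes had one. Capitals mark the cAMP response element TGACGTCA or its core TGACG on either strand (read CGTCA on the other). DUSP1 lies on the minus strand at chr5:172771146-172771445, RGS2 on the plus strand at chr1:192808789-192809088, KLF4 on the minus strand at chr9:107489720-107490019 and FOSB on the plus strand at chr19:45467746-45468045. ATF3 lies on the plus strand at chr1:212565157-212565456 and NR4A1 on the plus strand at chr12:52022582-52022881.
DUSP1: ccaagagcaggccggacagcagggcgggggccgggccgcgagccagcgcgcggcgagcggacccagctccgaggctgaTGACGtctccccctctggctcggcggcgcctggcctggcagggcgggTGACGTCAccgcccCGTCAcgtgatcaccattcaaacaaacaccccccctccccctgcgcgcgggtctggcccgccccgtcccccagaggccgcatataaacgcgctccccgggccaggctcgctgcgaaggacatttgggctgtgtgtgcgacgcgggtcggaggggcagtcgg
RGS2: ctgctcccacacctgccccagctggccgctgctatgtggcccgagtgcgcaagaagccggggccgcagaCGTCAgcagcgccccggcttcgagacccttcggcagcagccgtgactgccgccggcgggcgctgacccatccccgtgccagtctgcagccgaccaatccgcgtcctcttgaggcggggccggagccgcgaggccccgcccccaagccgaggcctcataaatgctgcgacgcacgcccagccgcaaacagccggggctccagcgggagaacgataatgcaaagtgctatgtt
KLF4: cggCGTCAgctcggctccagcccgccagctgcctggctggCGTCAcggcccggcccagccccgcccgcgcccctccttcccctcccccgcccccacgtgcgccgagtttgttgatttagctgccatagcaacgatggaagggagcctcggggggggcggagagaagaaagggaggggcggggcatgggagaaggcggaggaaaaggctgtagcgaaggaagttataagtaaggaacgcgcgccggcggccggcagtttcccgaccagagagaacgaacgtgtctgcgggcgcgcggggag
FOSB: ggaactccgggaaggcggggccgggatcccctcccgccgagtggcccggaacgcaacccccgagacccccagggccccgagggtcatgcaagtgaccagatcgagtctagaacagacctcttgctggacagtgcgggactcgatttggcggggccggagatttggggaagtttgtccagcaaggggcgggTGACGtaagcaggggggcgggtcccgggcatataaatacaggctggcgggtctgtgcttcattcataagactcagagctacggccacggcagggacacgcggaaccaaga
ATF3: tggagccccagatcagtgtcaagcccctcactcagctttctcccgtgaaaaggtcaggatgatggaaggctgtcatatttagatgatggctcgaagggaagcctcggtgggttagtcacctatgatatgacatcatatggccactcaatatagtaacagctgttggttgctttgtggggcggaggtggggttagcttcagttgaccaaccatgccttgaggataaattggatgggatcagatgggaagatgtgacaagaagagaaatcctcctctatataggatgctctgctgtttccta
NR4A1: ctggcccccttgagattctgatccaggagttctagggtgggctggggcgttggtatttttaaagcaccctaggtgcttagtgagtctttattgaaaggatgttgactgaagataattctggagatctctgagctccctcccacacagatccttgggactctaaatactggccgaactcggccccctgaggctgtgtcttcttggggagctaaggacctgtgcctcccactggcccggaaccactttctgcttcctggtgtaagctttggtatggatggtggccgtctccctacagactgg

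DUSP1 held the full element at bases 126 to 133 of its window, where 2 cores overlap, and 2 further cores at bases 79 to 83 and 140 to 144. RGS2 held 1 core at bases 70 to 74, KLF4 had cores at 4 to 8 and 41 to 45, and FOSB 1 at 191 to 195. MAN1A1 held 1 as well, at 189 to 193, and ATF3 and NR4A1 had none in this window. The core was thus in 5 of 7 promoters, against 35.6% of the 6457 promoters of tested genes, and the full element was in 1 of 7, against 3.5%. Of the other motifs searched on both strands, none was in the 7: the glucocorticoid response element AGAACA, any 3 bases, TGT, any base and CT (0.0% of the tested genes' promoters), AP-1 TGANTCA (4.55%), EGR GCGTGGGCG (1.39%) and the CArG box of the serum response factor (1.27%). A match describes letters in a short window and is not a measured binding site. Each gene was searched at 1 annotated start only, so a lack of a match says nothing of promoters at other starts.

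The 4 genes higher in EGF were dim, and in each of them all 3 serum values lay below the unstimulated one. In 2 of them, TNFSF14 and PMS2P2, all 3 EGF values lay below the unstimulated one as well. SURF2, a gene of the surfeit locus, was at 31.8, 31.0 and 45.1 in EGF against 9.1, 8.6 and 9.3 in serum, with 15.2 unstimulated. The difference was 1.52 (SE 0.13, 2.86-fold higher in EGF, limma adjusted p = 0.0545), and SURF2 was the 1 gene of the 4 in which all 3 EGF values lay above the unstimulated array. KHDRBS3, an RNA-binding protein of alternative splicing, was at 37.9, 36.2 and 26.7 in EGF against 5.7, 11.9 and 5.9 in serum, with 35.8 unstimulated (difference 1.59, SE 0.33, limma adjusted p = 0.161). For KHDRBS3 the EGF arrays were thus near the unstimulated one and the serum arrays under it.

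TNFSF14, the tumour necrosis factor family cytokine LIGHT, was at 36.9, 50.5 and 33 in EGF against 6.0, 20.1 and 13 in serum, with 76.0 unstimulated (difference 1.37, SE 0.34, limma adjusted p = 0.190). PMS2P2, a pseudogene of the mismatch repair gene PMS2, was at 34.2, 61.9 and 69.3 in EGF against 14.0, 14.6 and 15.2 in serum, with 82.7 unstimulated (difference 1.57, SE 0.23, limma adjusted p = 0.136). Its probe set may also read near-identical copies, so the gene behind that signal is uncertain. In these 4 genes 11 of the 12 serum values were under 20 and 0 of the 12 EGF values were, so the size of each difference depends on the dim end of the scale. SURF2 and PMS2P2 passed with a variance trend and robust variances, beside 0.983% higher over all genes. These genes too were chosen by size in the same pairs, so this is no separate support. At the edge of the rule, TNFSF14 entered with a smallest pair of 1.02 and NR4A1 with -1.06, while ANKRD11 (0.95), ASAP1-IT1 (0.93), RUSC2 (0.88), KLHL29 (0.86) and PRDM1 (-0.86) lay just outside it.

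**Figure D2:**
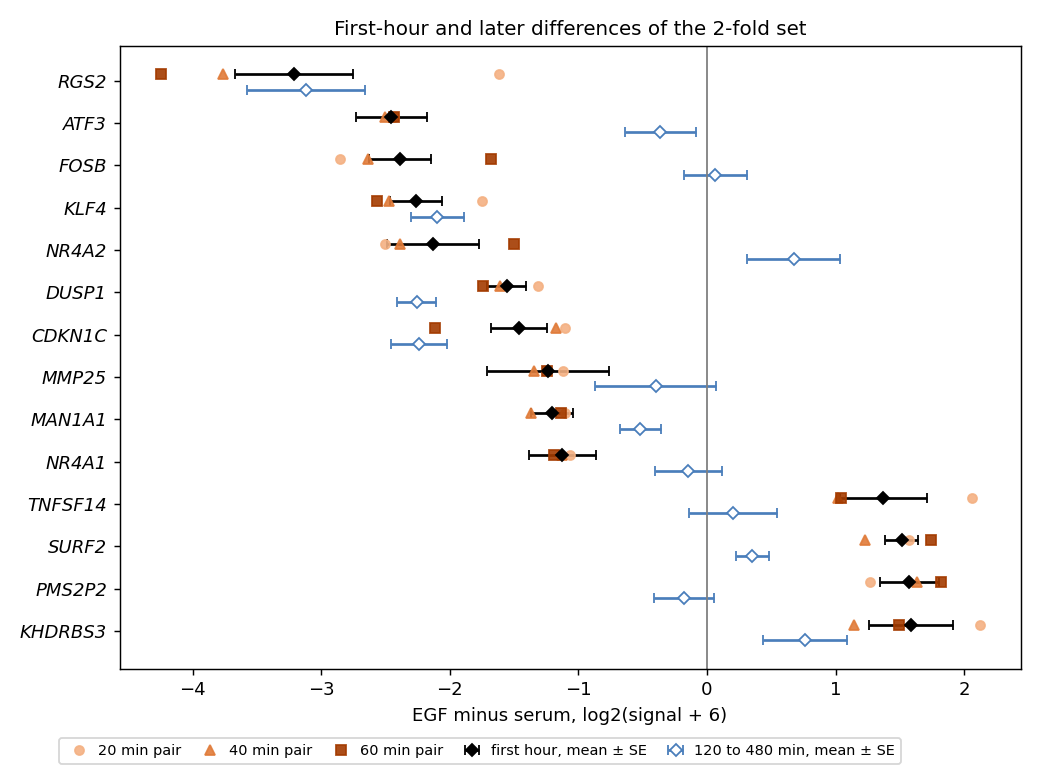
EGF minus serum in log2(signal + 6) for the 14 genes, with the 3 first-hour pairs as orange symbols, their mean as a black diamond and the mean of the pairs at 120, 240 and 480 min as an open blue diamond. Bars are the standard error of the model. RGS2, KLF4, DUSP1 and CDKN1C lie at or beyond -2 in the later pairs, while FOSB, NR4A1 and NR4A2 lie near or above 0.

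The lower set held both lasting and brief differences. RGS2 was at -3.21 in the first hour and -3.12 (SE 0.46) at 120 to 480 min, KLF4 at -2.26 and -2.10 (SE 0.20), DUSP1 at -1.56 and -2.26 (SE 0.15) and CDKN1C at -1.46 and -2.24 (SE 0.22). These 4 and MAN1A1 (-0.52 later) were lower in EGF in all 3 later pairs. The transcription factors FOSB (0.07), ATF3 (-0.36), NR4A1 (-0.14) and NR4A2 (0.67) had no common sign over the later pairs, and nor had MMP25. These means hide the 120 min pair, where ATF3 was still at -0.99, NR4A1 at -1.035 and MMP25 at -1.745. FOSB was at -0.17 and NR4A2 at -0.31 in that pair. The difference between the first hour and the later pairs was itself tested for each gene by limma, and none of these 14 passed. The closest was FOSB, at -2.45 (SE 0.34, adjusted p = 0.173). In the higher set, SURF2 (0.35) and KHDRBS3 (0.76) stayed higher in EGF in all 3 later pairs.

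That test was passed by 2 of 7731 genes (0.0259%), SOCS1 and ZBTB16, with 860 at an unadjusted p under 0.05. SOCS1, an inhibitor of JAK kinases, was at 44.1, 49.4 and 44.5 in EGF against 27.6, 13.1 and 14.2 in serum in the first hour, with 31.1 unstimulated. Its first-hour difference was 1.20 (SE 0.15) and its later one -1.34. SOCS1 had 3 further probe sets, at -1.08, 0.49 and -0.08 in the first hour, so they did not share a sign. ZBTB16, a zinc-finger repressor induced by glucocorticoids, was at 126.9, 128.1 and 115.1 in EGF against 124.7, 117.2 and 153.8 in serum, with 162.7 unstimulated. The ZBTB16 groups overlapped in the first hour, where the difference was -0.08, and lay apart later, at -2.87.

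**Figure D3:**
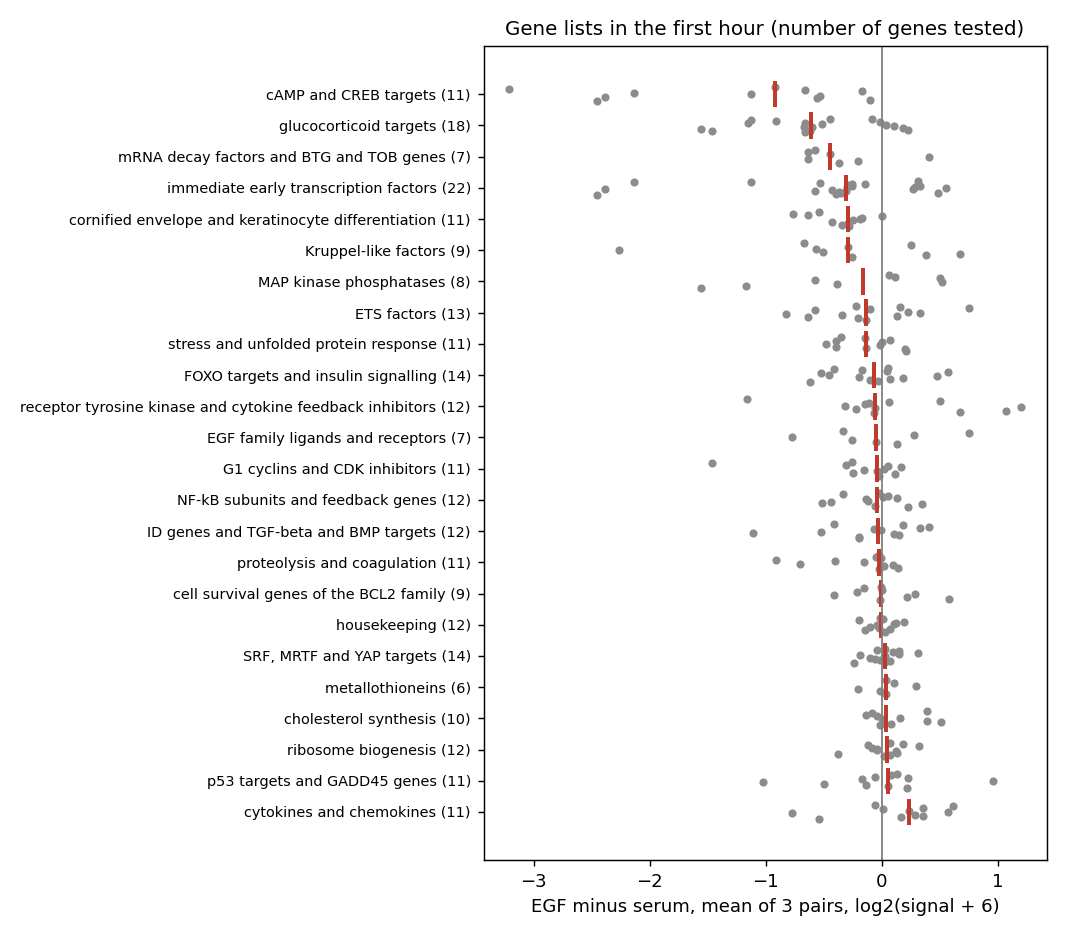
First-hour difference of each tested member (grey points) of 24 gene lists, as EGF minus serum in log2(signal + 6), with the list median as a red bar and the number of tested members in brackets. The cAMP and CREB targets and the glucocorticoid targets lie farthest to the left, with medians of -0.92 and -0.61, and most other medians lie near 0.

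Among 24 gene lists, 0 had a member past the limma threshold. Medians were under -0.2 in 6 lists and over 0.2 in 1, beside a median of -0.01 over all 7731 genes. Over all genes 21.3% were lower in EGF in all 3 pairs and 19.5% higher. With a variance trend and robust variances 1.32% of all genes passed lower and 0.983% higher. Of the 11 tested cAMP and CREB targets, 8 were lower in EGF in all 3 pairs and 0 higher, and 5 passed with a variance trend and robust variances, all lower (median -0.92). The 8 lower genes included RGS2, ATF3, FOSB and the NR4A pair. Among them too were SIK1, a kinase that restrains CREB coactivators, and PDE4D, a phosphodiesterase that breaks down cAMP. RGS2 (adjusted p = 0.0512) and SIK1 (adjusted p = 0.117) did not pass by limma with a variance trend and robust variances. SIK1 was at 455.7, 430.4 and 380.8 in EGF against 605.8, 821.4 and 1067.2 in serum, with 382.8 unstimulated (difference -0.92, SE 0.26, limma adjusted p = 0.230). PDE4D was at 70.9, 100.8 and 90.5 in EGF against 110.6, 144.1 and 172.6 in serum (difference -0.66, SE 0.13, limma adjusted p = 0.159).

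The SIK1 values did not overlap between the stimuli, and the gap was widest at 60 min. Those of PDE4D's brightest probe set did not overlap either, but its 3 dimmer ones were at 0.04, -0.74 and 0.83, without a common sign, and the mean of its probe sets gave -0.13. Over the list, the median against the unstimulated array was 0.26, 0.30 and 0.22 in EGF and 0.70, 1.19 and 1.47 in serum at 20, 40 and 60 min. The CREM gene, which encodes a CREB family repressor, was read by 4 probe sets that disagreed: -0.56 for the brightest, and 0.13, 0.77 and -0.13 for the others. In the later pairs the list's median was -0.14.

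Of 18 glucocorticoid targets, 12 were lower in EGF in all 3 pairs and 3 higher, beside 21.3% and 19.5% over all genes. With a variance trend and robust variances 6 passed, all lower (median -0.61), beside 1.32% lower over all genes. DUSP1, CDKN1C, KLF9, THBD, NFKBIA, ZFP36, BCL6, MT2A and MT1X are on this list and on other lists too, so the lists are not independent. SGK1, a kinase induced by glucocorticoids and serum, was at 654.2, 702.3 and 751.6 in EGF against 1112.1, 1856.7 and 1868.4 in serum, with 451.5 unstimulated (difference -1.16, SE 0.18, limma adjusted p = 0.146). TSC22D3, the glucocorticoid-induced leucine zipper GILZ, was at 148.4, 119.0 and 83.9 in EGF against 235.8, 252.5 and 284.0 in serum, with 184.9 unstimulated (difference -1.13, SE 0.20, limma adjusted p = 0.153).

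SGK1 was above the unstimulated level with both stimuli, whereas TSC22D3 was below it in EGF and above it in serum at each time. THBD, the thrombin receptor thrombomodulin, was at -0.91 and KLF9 at -0.67. FKBP5, the receptor's co-chaperone, was at 0.18 and CEBPD at 0.23, so not every member lay on the same side. The list's median against the unstimulated array was 0.01, -0.07 and -0.18 in EGF and 0.24, 0.44 and 0.55 in serum at 20, 40 and 60 min, and its later EGF-minus-serum median was -0.96.

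The 22 immediate early transcription factors were split. In all 3 pairs 11 were lower in EGF and 4 higher, beside 21.3% and 19.5% over all genes, so the higher count was near that share. With a variance trend and robust variances 5 passed, all lower (median -0.31), beside 1.32% lower over all genes. FOSB, ATF3, NR4A1 and NR4A2 lay far to the lower side and are also cAMP targets. EGR1, the zinc-finger factor induced through ERK and serum response factor, was instead higher in EGF, with 473.5, 984.6 and 908.8 in EGF against 353.5, 644.8 and 685.7 in serum and 150.7 unstimulated (difference 0.48, SE 0.15, limma adjusted p = 0.247). Its EGF and serum ranges overlapped, and EGF was above serum at each time. EGR3 was on the other side, with 113.3, 184.3 and 182.4 in EGF against 153.0, 221.9 and 253.6 in serum and 11.5 unstimulated (difference -0.37, SE 0.14).

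FOS, the founding AP-1 subunit, differed in its timing. It was at 239.0, 500.9 and 362.0 in EGF against 789.6, 932.4 and 142.4 in serum, with 33.1 unstimulated. Serum was above EGF at 20 and 40 min and below it at 60 min, and the pairs were at -1.72, -0.87 and 1.30. The mean of -0.43 (SE 0.69, limma adjusted p = 0.805) therefore hides 2 directions and turns to 0.21 without the 20 min pair. IER2 (0.55) and JUNB (0.33) were higher in EGF in all 3 pairs, with the largest gap at 60 min. IER2 reached 1312.2 in EGF and 692.5 in serum there, and JUNB 579.8 and 369.5. MYC was at -0.15 (SE 0.24).

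**Figure D4:**
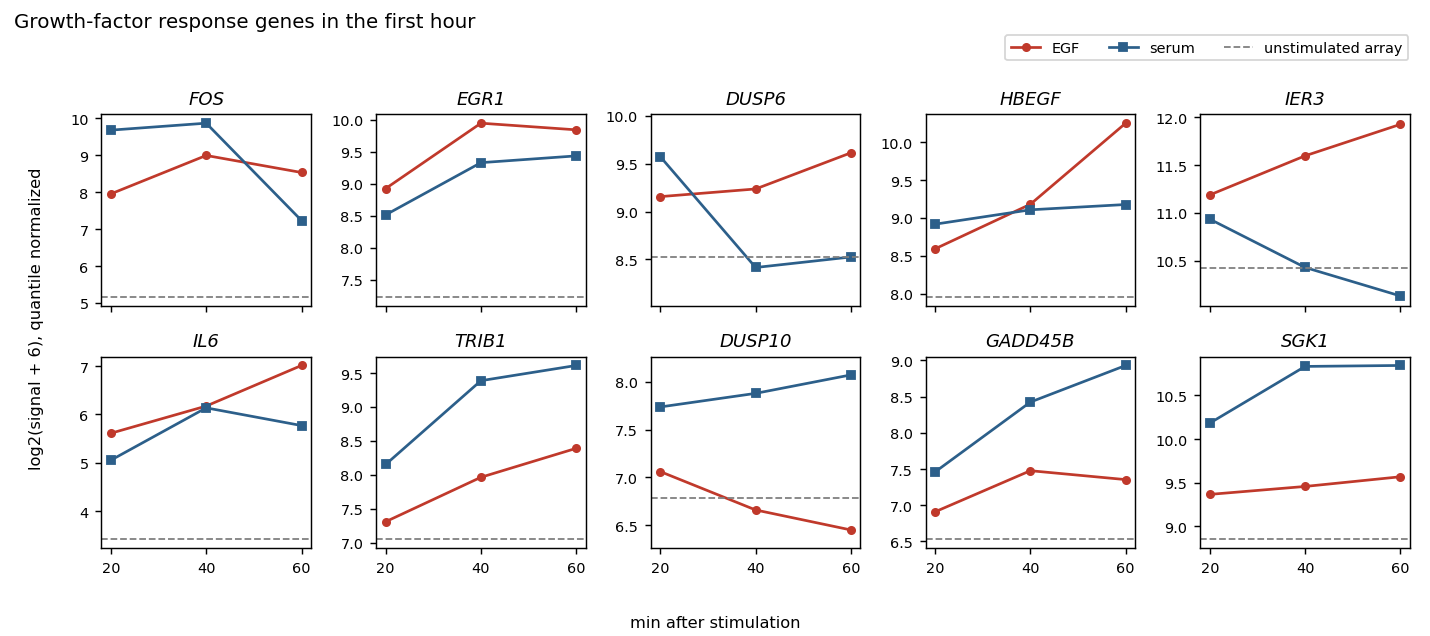
Level of 10 growth-factor response genes as quantile-normalized log2(signal + 6) against min after stimulation, for EGF (red circles) and serum (blue squares), 1 array a point, with the unstimulated array as a dashed line. Each gene is read from its brightest probe set. The lines cross for FOS, DUSP6 and HBEGF, EGF lies above serum at each time for EGR1, IER3 and IL6, and serum lies above EGF at each time for the other 4.

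Feedback genes are described next, beside shares of 21.3% lower and 19.5% higher over all genes. Of 8 tested MAP kinase phosphatases, 1 was higher in EGF in all 3 pairs and 4 lower (median -0.17). With a variance trend and robust variances 1 passed higher and 2 lower, beside 0.983% and 1.32% over all genes. DUSP6, a cytoplasmic ERK phosphatase used as a readout of ERK activity, was at 560.5, 600.8 and 772.0 in EGF against 740.7, 331.6 and 358.7 in serum, with 366.9 unstimulated (difference 0.50, SE 0.28, limma adjusted p = 0.467). By this probe set, its brightest, serum was the higher one at 20 min and lay near the unstimulated level at 40 and 60 min. The other DUSP6 probe sets, at 0.60 and 1.02, did not cross, with 20 min pairs of 0.01 and 0.45, and were higher in EGF in all 3 pairs. DUSP4, a nuclear phosphatase, was at 504.3, 482.7 and 430.8 in EGF against 319.9, 360.6 and 303.1 in serum, with 248.8 unstimulated (difference 0.52, SE 0.13, limma adjusted p = 0.195). This DUSP4 probe set did not overlap between the stimuli, whereas its other one did, at a mean of 0.13 with -0.07 in the 20 min pair.

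DUSP10, which prefers p38 and JNK, was at -1.17 (SE 0.30) and its other probe set at -0.70, and DUSP5, a nuclear ERK phosphatase, was at -0.58 (SE 0.14). Among 12 inhibitors of receptor and cytokine signalling, 3 were higher and 3 lower in all 3 pairs (median -0.06), which is near those shares and no result about the list. The pseudokinase TRIB1 was at 151.4, 241.5 and 331.0 in EGF against 278.0, 675.3 and 782.1 in serum, with 133.5 unstimulated (difference -1.16, SE 0.17, limma adjusted p = 0.136). Both stimuli were above the unstimulated level, serum by more, and TRIB1 was at 0.60 in the later pairs.

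IER3, an early gene that acts on ERK and cell survival, had the opposite order. It was at 2389.1, 3268.6 and 4030.1 in EGF against 1840.3, 1419.9 and 1126.4 in serum, with 1293.2 unstimulated (difference 1.07, SE 0.28, limma adjusted p = 0.203). The groups did not overlap, EGF was highest at 60 min and serum lowest there, and the pairs were at 0.25, 1.17 and 1.79. IER3 was still at 1.77 in the later pairs.

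Ligands and secreted factors were mostly less far apart. HBEGF, an EGF receptor ligand, was at 378.2, 570.7 and 1206.5 in EGF against 470.1, 549.3 and 573.2 in serum, with 248.3 unstimulated. The pairs of 20 and 40 min were at -0.33 and 0.07, and that of 60 min at 1.08. The mean was 0.27 (SE 0.27, limma adjusted p = 0.682) and turns to -0.13 without the 60 min pair, while the later pairs were at 2.30. EREG, another ligand of the same receptor, was at 157.5, 169.3 and 135.1 in EGF against 234.2, 255.6 and 316.3 in serum, with 143.7 unstimulated (difference -0.78, SE 0.19, limma adjusted p = 0.188). Its EGF values lay near the unstimulated one. The 7 tested EGF family ligands and receptors had 2 higher and 3 lower in all 3 pairs (median -0.05), beside 19.5% and 21.3% over all genes. NRG1 was at 0.75 by its brightest probe set, but 3 of its 6 probe sets were negative (-0.13, -0.14 and -0.26) and their mean gave 0.23.

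Of 11 cytokines and chemokines, 4 were higher in EGF in all 3 pairs and 1 lower (median 0.23, later median 0.78). Over all genes these shares were 19.5% and 21.3%, and the small counts were not tested against them. With a variance trend and robust variances 1 member passed, higher in EGF, beside 0.983% higher over all genes. CXCL8, the neutrophil attractant interleukin-8, was at 1559.4, 2390.2 and 3394.9 in EGF against 1399.7, 1581.3 and 1591.7 in serum, with 555.9 unstimulated (difference 0.57, SE 0.21, limma adjusted p = 0.312). IL6 was at 43.4, 66.7 and 125.2 in EGF against 33.4, 63.3 and 47.5 in serum, with 4.9 unstimulated (difference 0.61). The CXCL8 pairs were at 0.06, 0.58 and 1.07 and those of IL6 at 0.56, 0.04 and 1.24, so both were widest at 60 min. CXCL8's other probe set was at 0.30, and at -0.36 in the 20 min pair. CXCL1 was at 0.35 and CXCL3 at -0.77.

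The targets of serum response factor and YAP were close between the stimuli. Of 14 tested, 3 were higher and 4 lower in all 3 pairs (median 0.02), near the 19.5% and 21.3% over all genes. With a variance trend and robust variances 0 passed. CCN2, the matricellular connective tissue growth factor, was at 1499.3, 3190.2 and 3269.1 in EGF against 1500.5, 3071.9 and 3842.6 in serum, with 321.3 unstimulated (difference -0.11, SE 0.11, limma adjusted p = 0.688). CCN1 was at 1580.3, 2495.9 and 2742.2 in EGF against 1567.6, 2570.8 and 2810.1 in serum, with 593.0 unstimulated (difference -0.06, SE 0.11, limma adjusted p = 0.831). Both genes were well above the unstimulated level with either stimulus. A p that misses the threshold does not show that they were equal, but the gaps were small beside those of RGS2 or DUSP1.

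A further 3 lists had medians under -0.2. Of 7 mRNA decay factors and BTG and TOB genes, 6 were lower in all 3 pairs and 1 higher (median -0.45), beside 21.3% lower and 19.5% higher over all genes. TOB1, an antiproliferative protein, was at -0.64. ZFP36L1, which promotes decay of AU-rich mRNAs, was at -0.64 by its brightest probe set, but its others were at -0.05, -0.34 and 0.21 and the mean of them all gave -0.20. Of 9 Kruppel-like factors, 6 were lower and 3 higher (median -0.29), with KLF4 at -2.26 and KLF12 at 0.67, although KLF12's other probe sets were at 0.63, -0.86 and 0.40. Among 11 cornified envelope and keratinocyte genes, 9 were lower and 0 higher (median -0.29), with the envelope precursors SPRR1B at -0.77 and SPRR1A at -0.64. With a variance trend and robust variances 2, 2 and 1 members of these 3 lists passed, all lower, beside 1.32% lower over all genes.

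GADD45B, a stress sensor of the p38 and JNK pathways, was at 114.4, 169.9 and 159.4 in EGF against 173.5, 333.3 and 482.5 in serum, with 91.9 unstimulated (difference -1.02, SE 0.21, limma adjusted p = 0.159). Its serum values started near the highest EGF value and were farthest away at 60 min, and its 3 other probe sets were at -0.66, -0.94 and -0.82. MDM2, the ubiquitin ligase of p53, was at 0.95 by its brightest probe set, whereas its 4 others were at 0.61, -0.23, -0.09 and -0.15. The 11 p53 and GADD45 genes had 2 higher and 4 lower in all 3 pairs (median 0.05), beside 19.5% and 21.3% over all genes. ID2, an inhibitor of helix-loop-helix factors, had pairs of 0.28, -2.48 and -1.13 by its brightest probe set, so its sign differed at 20 min. The 40 min pair rests on an EGF signal of 2.1, at the dim end of the array, against 37.9 in serum. The other ID2 probe set, dimmer still, had pairs of 0.45, -0.26 and -2.03.

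The remaining lists had medians between -0.14 and 0.04. Their counts stand beside 19.5% higher and 21.3% lower over all genes, were not tested against these shares and give no result about the lists. The lists were ETS factors (13 tested, 2 higher and 3 lower in all 3 pairs, with ELK3 at -0.82, or -0.52 by the mean of its probe sets, and ETV6 at 0.75), stress and unfolded protein response genes (11, 2 and 4), FOXO and insulin signalling genes (14, 1 and 2), G1 cyclins and inhibitors (11, 1 and 4), NF-kB genes (12, 1 and 4), ID and TGF-beta targets (12, 0 and 4) and proteolysis genes (11, 0 and 4). The same holds for BCL2 family genes (9, 2 and 1), metallothioneins (6, 3 and 1, near-identical paralogs), cholesterol synthesis (10, 5 and 2), ribosome biogenesis (12, 4 and 2) and housekeeping genes (12, 2 and 3, median -0.01). Within them, PLAUR, the urokinase receptor, was at -0.70, NFKBIA, the inhibitor of NF-kB, at -0.52 and the sterol synthesis enzyme HMGCS1 at 0.51.

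The 3 pairs share no array. Across the 7731 genes, the differences of the 20 and 40 min pairs had a Pearson correlation of 0.23, those of 40 and 60 min 0.32 and those of 20 and 60 min 0.18, as a description, since genes are not independent. The median absolute difference was 0.20, 0.22 and 0.22 at 20, 40 and 60 min. Lower in EGF by at least 2-fold were 134, 155 and 155 genes, and higher 133, 84 and 96. Without the 20 min pair, which holds the serum array that stood apart, 36 genes were at least 2-fold lower in both remaining pairs and 10 higher. RGS2, at -4.01, was then the 1 gene past the limma threshold.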

How the data were processed

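The authors hybridised RNA from serum-deprived MCF10A cells to 13 Affymetrix arrays with 22277 probe sets each. The deposited values are linear intensities, the signals of MAS5 per the submitters' processing notes, with 1 for each probe set on each array. Its version is not given in the sources used here, and detection calls were not used here. From these intensities log2(signal + 6) was computed, and quantile normalization over the 13 arrays was done in R 4.3.3 with limma 3.58.1. Control probe sets (62) were left out. Of the other 22215, 19064 had 1 gene symbol in the platform annotation, 1043 several and 2108 none, and 19052 were matched to the RefSeq table by Entrez number. Each gene was read from its probe set with the highest mean, and genes whose mean was under the 40th percentile of probe sets (4.68) were left out.

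The limma model used the 12 stimulated arrays with time as a block and a separate EGF-minus-serum term for the first hour and for 120 to 480 min (4 residual degrees of freedom, 2.78 prior). The p-values are two-sided with a threshold of 0.05. The lone array of each stimulus and time was assumed to vary like the others. The fitting script was tested on simulated data, which do not show how these single arrays vary. Genes were named if at least 2-fold apart in 1 direction in all 3 pairs, past the threshold between phases, or the 2 largest of a list, with FOS, EGR1, MYC, DUSP6 and HBEGF always (59 genes). A further 18 were chosen after their values were seen: IER3, SGK1, TSC22D3, SIK1, CREM, PDE4D, IER2, JUNB, DUSP4, DUSP5, CXCL8, CXCL1, CISH, CCN1, CCN2, EGR3, KLF12 and ZFP36. So were FKBP5, CEBPD and the genes at the edge of the 2-fold rule. The comparison and all gene lists were chosen with earlier results of these data known. Alternatives were other offsets, no quantile normalization, other filters, the mean of probe sets, other variance models, a minimum fold, fewer arrays, no time block and each time pair left out. Summaries used Python 3.11.15 and pandas 2.3.3.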

Additional observations from a re-analysis of the deposited data

Results flagged for a closer look

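For 2 genes the EGF-minus-serum difference of the first hour differed from that of the later times by limma's test of the difference itself. SOCS1 was at 1.20 in the first hour and -1.34 at 120 to 480 min, higher in EGF in 3 of 3 first-hour pairs and lower in 3 of 3 later ones. The first-hour value was higher by 2.54 on the log2 scale (SE 0.22, adjusted p = 0.0380). Its later signals were 12.2, 7.4 and 11 in EGF against 46.7, 23.1 and 37.0 in serum, near the dim end of the array, and its 3 other probe sets did not share a sign in the first hour. ZBTB16 was at -0.08 in the first hour and -2.87 later, a difference of 2.78 (SE 0.21, adjusted p = 0.0290), and its later signals were 23.6, 14.7 and 6.5 in EGF against 181.1, 143.3 and 108.4 in serum. Over the alternatives the value of SOCS1 ran from 1.58 to 3.24 with the call kept in 3 of 12, and that of ZBTB16 from 2.04 to 3.26 with the call kept in 7 of 14. The cause was not tested.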

How the results depend on the processing

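The count of genes past the limma threshold in the first hour was 0 as reported, also with no filter and with a minimum of 1.5-fold. It was 1 with no offset (SURF2), 6 with 4 times the offset, 2 with no quantile normalization, 9 with a stricter filter, 2 with the mean of probe sets, 178 with a variance trend and robust variances, 1 with only the 6 first-hour arrays (ATF3), 7 with no time block and 0 to 1 with each time pair left out. The 1 gene was RGS2 without the 20 min pair and ATF3 without the 480 min pair. KLF4 passed under 5 of 15 alternatives, DUSP1 under 5 of 15 and SURF2 under 6 of 14.

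The count for the first hour against the later times was 2, and it was 0 with no offset, 8 with 4 times the offset, 1 with no quantile normalization, 0 with no filter, 5 with a stricter filter, 1 with the mean of probe sets, 70 with trend and robust variances, 6 with no time block and 0 to 1 with a pair left out. The 10 genes at least 2-fold lower became 11 with no offset, 6 with 4 times the offset, 23 with no filter, 4 with a stricter filter, 6 with the mean of probe sets and 17 to 36 with a first-hour pair left out. The 4 higher genes became 9, 0, 13 and 0 under the first 4 of these, and 9 to 13 with a first-hour pair left out.

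Of 77 named genes 72 kept their sign under each alternative run. NFKBIB (0.11) and MT1G (0.03) turned with the mean of probe sets, FOS without the 20 min pair, and HBEGF and ZBTB16 without the 60 min pair. With a pair left out FOS ran from -1.30 to 0.21, HBEGF from -0.13 to 0.57 and ZBTB16 from -0.18 to 0.091. Of 24 list medians 12 changed sign under some alternative, none of them the cAMP (-1.16 to -0.66), glucocorticoid (-0.70 to -0.50) or immediate early list (-0.32 to -0.25). The cause of these shifts was not tested. Signals under 20, and 1 array per stimulus and time, limit what the 4 higher genes can show.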
